A study of Mus musculus with 1 sample.

Results

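Naive-like CD8 T cells were examined in the blood of 1 vehicle-treated mouse with autochthonous small cell lung cancer (SCLC). They made up 146 of 1600 called cells, a share of 9.13% (7.76% to 10.6%). The members were chosen by the UMIs measured in them, a UMI being the barcode by which single RNA molecules are counted. A barcode was a member when it had at least 1331 UMIs with at least 10% of them on ribosomal protein genes, a UMI of Cd3d, Cd3e or Cd3g, at least 2 UMIs of Cd8a and Cd8b1 together, no Cd4 UMI, no UMI of Gzma, Gzmb, Gzmk or Cx3cr1 and at most 1 UMI of Ly6c2 and Il2rb together. Levels of these genes therefore describe the choice and are not findings.

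The study asked how ERBB2 and PD-1 inhibition change the T cell response to SCLC, and read the T cell receptor (TCR) and the gene expression of peripheral T cells from the same droplets. In its SCLC model, Rb1 and Trp53 are deleted conditionally in mice on a C57BL/6 background after an intratracheal Adeno-Cre virus, and whether Cre acted in any blood cell was not examined here. The vehicle was phosphate-buffered saline, given every 3 days, and neither the age nor the sex of this mouse is among its labels. From 150 µl of blood, red cells were lysed and T cells were enriched by negative selection, which removes other cells and leaves T cells untouched. The group is 1 library of 1 mouse, so there is no replicate error, no test was run, and a difference between groups of cells describes this library alone.

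A naive CD8 T cell has left the thymus and has not yet met its antigen. It circulates between blood and lymph nodes with the help of the chemokine receptor CCR7, lives on IL-7 signals, and is held in a resting state by factors such as LEF1, TCF1 (encoded by Tcf7), FOXP1 and BACH2. After it meets antigen it divides, so that many cells carry 1 receptor, and it takes up granzymes, chemokines and tissue-homing integrins, part of which memory cells keep.

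Of the 1600 called cells, 983 passed the ribosomal limit and 899 of those held a CD3 UMI. The CD8 limit left 505, the absence of Cd4 493 and the absence of granzymes and Cx3cr1 388, which the last limit divided into the 146 members and 242 cells with 2 or more UMIs of Ly6c2 and Il2rb, called Ly6c2 Il2rb CD8 cells here. Among the members, 101 had neither of these 2 genes, 34 had 1 Il2rb UMI and 11 had 1 Ly6c2 UMI. The 105 CD8 cells with a Gzma, Gzmb, Gzmk or Cx3cr1 UMI are called Gzmk or Cx3cr1 CD8 cells. Resting CD4 cells were 166 cells with a Cd4 UMI, no CD8 UMI, the same limits on granzymes, Cx3cr1, Ly6c2 and Il2rb, no Foxp3 and at most 1 S100a4 UMI. The 61 B-like cells had at least 2 UMIs of Cd79a, Cd79b and Ms4a1 and no CD3 UMI, and serve as the background of RNA that T cells should hold and B cells should lack.

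The members held 913118 UMIs, with 1410 to 12410 per cell, a median of 6012 UMIs and 2112.5 genes. Depth differed between the groups. The median was 9605.5 UMIs in Ly6c2 Il2rb CD8 cells, 5655 in Gzmk or Cx3cr1 CD8 cells, 3800.5 in resting CD4 cells and 4088 in B-like cells. The median ribosomal share differed too, at 33.5% in the members and 35.5% in Ly6c2 Il2rb CD8 cells. It was 24.6% in resting CD4, 19.5% in Gzmk or Cx3cr1 CD8 and 22.6% in B-like cells. A level is a share of all UMIs, and the part of this gap in the ratios below was not tested. Because the limit on Ly6c2 and Il2rb counts UMIs, a deep cell passes it less easily than a shallow one. A level is the sum of a gene's UMIs in a group divided by all UMIs of those cells and multiplied by 10000, with exact 95% Poisson intervals, and shares with exact 95% binomial (Clopper-Pearson) intervals. Both cover counting error only, and cells of 1 library are not replicates. Where a group had a count of 0, 3 UMIs were set for it to give a limit or an "at least" ratio, and the limit from the exact interval, which is wider, is given beside it. Shares of cells with a UMI are also given after each cell was thinned to 2500 UMIs, which left out 7 members, 2 Ly6c2 Il2rb CD8, 2 Gzmk or Cx3cr1 CD8, 30 resting CD4 and 10 B-like cells.

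Close to the limits, 9 cells failed only for having 1 CD8 UMI, while 5 members had 2 CD8 UMIs, 5 had 3 and 10 had 4. The lowest ribosomal share of a member was 10.1%, and the highest of a cell that failed only that limit was 9.86%. A further 77 CD8 cells met every limit but the ribosomal one. Their median ribosomal share was 2.86%, against 33.5% in the members, and 27.3% of them (17.7% to 38.6%) had a TCR clonotype. Below the UMI limit, 1 barcode of 200 or more UMIs met the other limits, with 513 UMIs and no clonotype.

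The markers of the label were all detected. Of the 5 genes given as markers, Cd8a and Cd8b1 were used by the rule, at pooled levels of 5.40 and 14.2 UMIs per 10000. Cd8b1, the beta chain of the CD8 coreceptor, was found in all 146 members and Cd8a, its alpha chain, in 132. Both genes lie on chromosome 6 of GRCm38.p6, Cd8b1 at 71322788 to 71337492 and Cd8a at 71373427 to 71379171. Of the 9 genes listed as naive T cell markers, all were detected, and their summed level was 60.9998 UMIs per 10000, against 48.1 in Ly6c2 Il2rb CD8, 34.3 in Gzmk or Cx3cr1 CD8 and 86.3 in resting CD4 cells. This sum was 90.8 in the 77 CD8 cells that failed only the ribosomal limit and 32.7 in B-like cells.

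Lef1 (chromosome 3, 131110297 to 131224357, GRCm38.p6), which encodes a transcription factor that keeps T cells resting and CD8-committed, was found in 138 of 146 members, with a median of 5 and at most 23 UMIs per cell. Its pooled level was 8.97 per 10000 (8.37 to 9.61) in the members, 10.97 (10.2 to 11.8) in resting CD4, 6.14 (5.82 to 6.47) in Ly6c2 Il2rb CD8 and 3.18 (2.77 to 3.64) in Gzmk or Cx3cr1 CD8 cells. These 4 intervals did not overlap. Among cells of 4000 to 8000 UMIs, Lef1 was at 9.52 (8.64 to 10.5) in the members, 10.6 (9.57 to 11.7) in resting CD4, 7.01 (6.23 to 7.86) in Ly6c2 Il2rb CD8 and 2.74 (2.22 to 3.34) in Gzmk or Cx3cr1 CD8 cells, so that the members and resting CD4 cells overlapped there. After thinning, 82.0% of the members held a UMI of Lef1, 94.5% before it, while 1 of 51 thinned B-like cells did.

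Dapl1 (chromosome 2, 59484653 to 59505020, GRCm38.p6), a gene known as a marker of resting CD8 T cells, was found in 66 members, and the other 80 held no UMI of it. Its pooled level of 2.91 per 10000 (2.57 to 3.29) was 2.27 times that in resting CD4 cells (1.28, 1.03 to 1.57) and 11.3 times that in Gzmk or Cx3cr1 CD8 cells (0.258, 0.150 to 0.413). It did not differ beyond counting error from Ly6c2 Il2rb CD8 cells, at 3.12 (2.89 to 3.36). The thinned share was 36.0% in the members and 40.0% in Ly6c2 Il2rb CD8 cells, against 45.2% and 59.5% before thinning. B-like cells held no Dapl1 UMI.

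Itgae (chromosome 11, 73090505 to 73147449, GRCm38.p6) encodes CD103, the integrin chain that binds E-cadherin on epithelia. It was found in 64 members, with at most 5 UMIs in a cell, at a pooled level of 1.17 per 10000 (0.960 to 1.42). The level was 0.312 (0.243 to 0.394) in Ly6c2 Il2rb CD8, 0.212 (0.116 to 0.356) in Gzmk or Cx3cr1 CD8 and 0.0279 (0.00338 to 0.101) in resting CD4 cells, where 2 of 166 cells held a UMI. The members thus stood above each of these 3 groups, by a ratio of 3.75 (2.75 to 5.15) to the nearest. The 77 CD8 cells that failed only the ribosomal limit are not part of this ranking. In them the 5 given markers, Cd8a and Cd8b1 included, summed to 38.2 per 10000, against 32.7 in the members. Among cells of 4000 to 8000 UMIs that gap was smaller, at 1.13 (0.836 to 1.48) against 0.530 (0.332 to 0.802) in Ly6c2 Il2rb CD8 cells. After thinning, 22.3% of the members held a UMI, 9.58% of Ly6c2 Il2rb CD8 cells and 1 of 51 B-like cells.

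**Figure D1:**
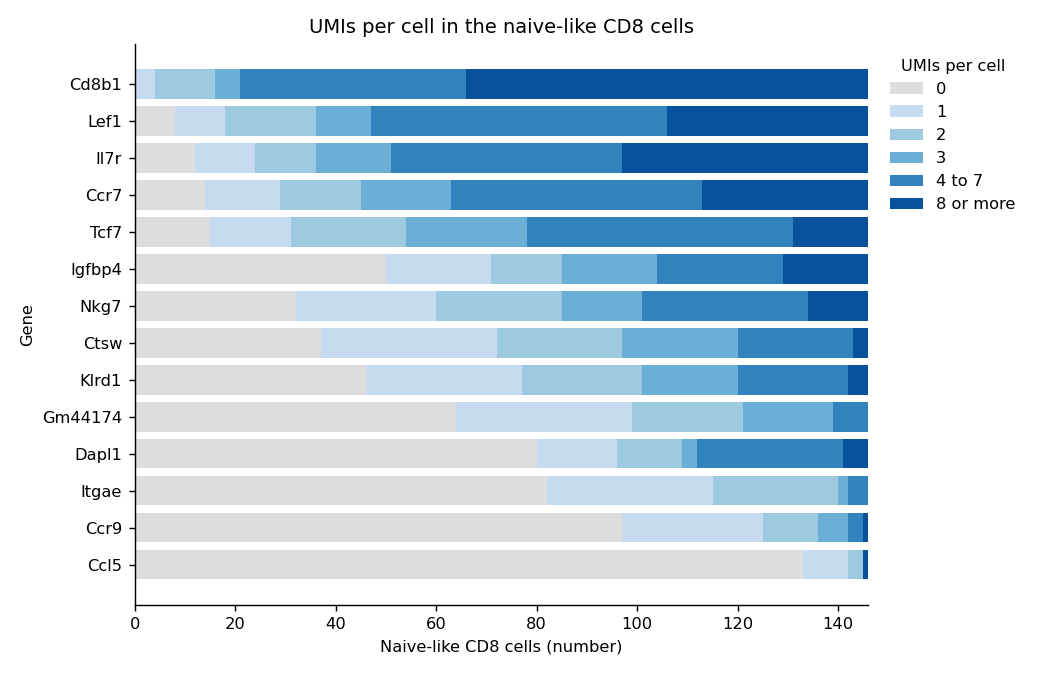
UMIs per cell of 14 genes in the 146 naive-like CD8 cells; each bar runs over all members on the x axis (number of cells) and its shades give how many held 0, 1, 2, 3, 4 to 7 or 8 or more UMIs. Cd8b1 was used by the rule; Lef1 was at 0 in 8 members, Dapl1 in 80, Itgae in 82, Ccr9 in 97 and Ccl5 in 133.

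The other naive genes were present in most members. Ccr7 was found in 132 members at 7.94 UMIs per 10000 (7.37 to 8.54). Tcf7 was found in 131 at 6.15 (5.66 to 6.69). Il7r, which encodes the IL-7 receptor alpha chain, was found in 134 at 9.56 (8.94 to 10.2). S1pr1, the receptor that lets T cells leave lymph nodes, was found in 102, and Klf2, the factor that drives S1pr1, in 140. B-like cells also express Ccr7, Klf2 and S1pr1, so that these genes separate resting from activated cells but not T from B cells. Tcf7 and Il7r were found in 3 and 1 of 61 B-like cells.

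**Figure D2:**
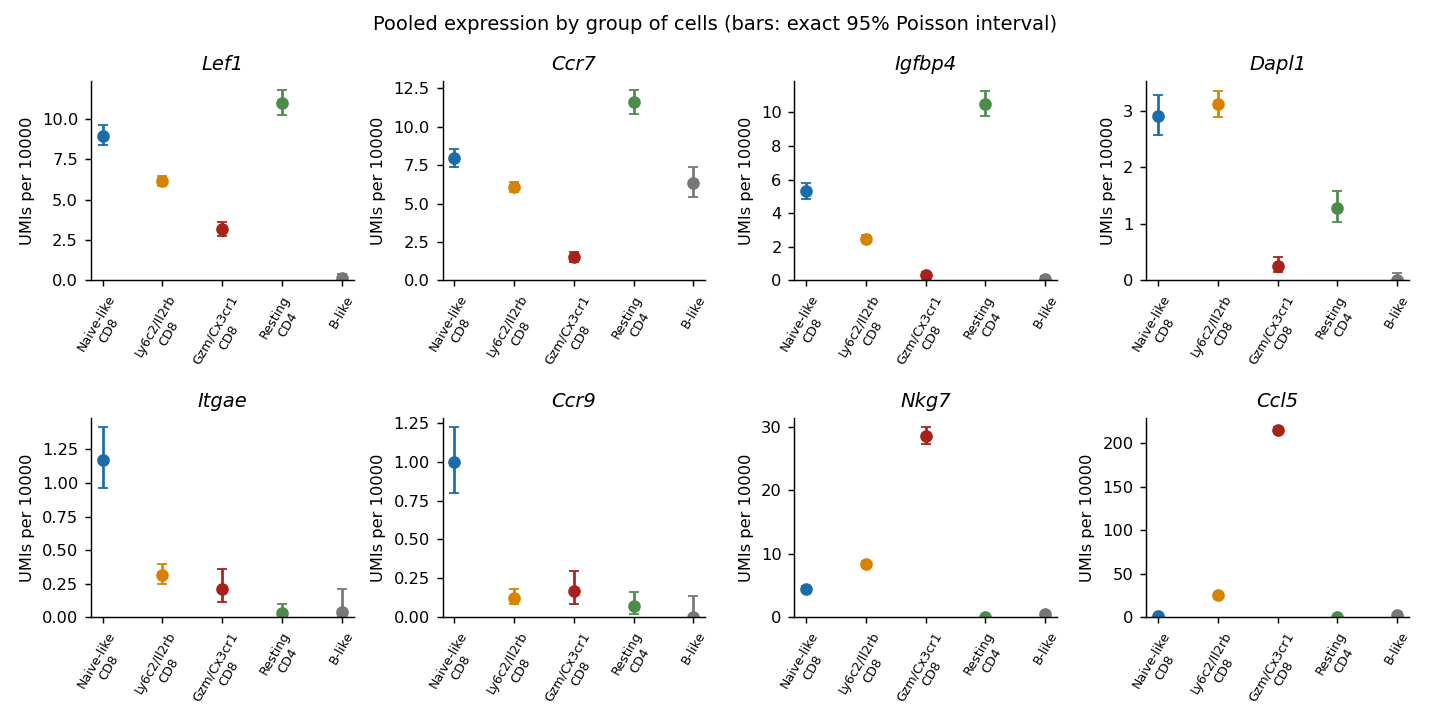
Pooled levels (y axis, UMIs per 10000, each panel on its own scale from 0) of 8 genes in 5 groups of cells of 1 library; bars are exact 95% Poisson intervals. Among these 5 groups Itgae and Ccr9 were highest in the naive-like CD8 cells, Lef1 and Igfbp4 were higher in resting CD4 cells, and Ccl5 reached 215 UMIs per 10000 in Gzmk or Cx3cr1 CD8 cells. CD8 cells that failed only the ribosomal limit are not shown.

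Resting CD4 cells are the other naive-like population of this blood, so that setting the members beside them asks which genes go with the CD8 lineage in resting cells. Nkg7, Ctsw, Klrd1 and the homing receptors Itgae and Ccr9 were higher in the members, and Cd40lg, Ly6c1 and St8sia6 were higher in resting CD4 cells. Of 7504 genes whose UMIs summed to 20 or more over the 2 groups, 197 (2.63%) were at least 2-fold higher in the members and 526 (7.01%) at least 2-fold lower, and the median ratio over all of them was 0.874. The interval of the ratio lay above 1 for 134 of the 197 and below 1 for 420 of the 526. Where 20% of UMIs on ribosomal protein genes was asked of every cell, 242 genes were higher and 403 lower, so that 37.5% of those past 2-fold were higher in place of 27.2%.

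Nkg7, which encodes a membrane protein of cytotoxic granules, was found in 114 of 146 members and in 4 of 166 resting CD4 cells. Its pooled level of 4.45 (4.02 to 4.90) was 53.1 times (24.2 to 146) that of resting CD4 cells, while the members had no granzyme UMI by their choice. The thinned share was 59.7% in the members, 2.21% in resting CD4 and 1.96% in B-like cells. Klrd1, which encodes the NK receptor chain CD94, was found in 100 members, at a ratio of 23.2 (12.04 to 51.3), and Ctsw, a protease of cytotoxic cells, in 109, at a ratio of 4.27 (3.17 to 5.83). Nkg7 was at 4.23 (3.73 to 4.78) in the 101 members with neither a Ly6c2 nor an Il2rb UMI and at 4.88 (4.13 to 5.74) in the 45 with 1.

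S100a9 had the highest ratio, 80.9 (14.2 to 3224). It, S100a8 and Ccl6 were among the 10 highest ratios through 1 member described further on. Of the other genes with the highest ratios, Gm44174 was found in 82 members and in no resting CD4 cell, a level at least 44.0 times higher when 3 UMIs are set for the CD4 group and at least 35.4 times by the exact interval. This long non-coding gene lies between Cd8b1 and Cd8a on the same strand in GENCODE vM39, and whether reads of the Cd8 transcripts were counted for it was not tested. Racgap1, known for its part in cell division, was found in 33 members and 1 CD4 cell, with a ratio of 39.3 (6.73 to 1581). Lcn4, of the lipocalin family, was found in 40 members and 2 CD4 cells, with a ratio of 25.1 (6.68 to 212), and Prss12, a secreted protease, in 26 members and 1 CD4 cell, with a ratio of 26.7 (4.48 to 1085). The homing list had 3 of 17 tested genes at least 2-fold higher, Itgae, Ccr9 and Cxcr6, against 2.63% of all genes tested, and 2 lower, Cxcr3 and Itgb1, against 7.01%. Itgae, Ccr9 and Cxcr6 had 2, 5 and 2 UMIs in resting CD4 cells and entered the comparison through the members, so that the count of 3 is no support for a direction, as for any list whose genes are low in 1 of the groups. Cxcr6, a chemokine receptor of tissue-seeking T cells, was found in 32 members at 0.482 per 10000 (0.350 to 0.647) and in 2 CD4 cells.

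Genes lower in the members included those of CD4 help. Cd40lg, the CD40 ligand through which CD4 cells help B cells, had no UMI in the members and 93 in resting CD4 cells, a level at least 39.5 times lower with 3 UMIs set for the members and at least 31.5 times by the exact interval. Tnfrsf4 also had no UMI in the members, against 20 in resting CD4 cells. Zbtb7b, which encodes ThPOK, the factor that sets the CD4 fate, had none in the members and 18 in resting CD4 cells, too few to be compared. Ly6c1, a GPI-anchored surface antigen, was found in 50 resting CD4 cells at 2.18 per 10000 (1.85 to 2.55) and in 3 members at 0.0876 (0.0378 to 0.173). St8sia6, a sialyltransferase, was found in 69 CD4 cells and 5 members. Tbc1d4, which acts in the transport of glucose transporters, was found in 31 CD4 cells and 2 members, with a CD4 to member ratio of 29.9 (7.84 to 254). Pdlim4, Myo6 and Lgmn were found in 21, 19 and 21 CD4 cells, and in 2, 1 and 1 members. Cd74, the invariant chain of MHC class II, had 113 UMIs in 7 CD4 cells, H2-Ab1 20 in 1 cell and Bbof1 36 in 2 cells, so that these 3 ratios rest on few cells.

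The list of CD8 and CD4 lineage genes was written with these lineages known, and 9 of its 17 tested genes were higher and 6 lower, 3 of the 17 being genes of the rule. Runx3, the factor that sets the CD8 fate, was at 1.20 (0.990 to 1.45) in the members and 0.502 (0.352 to 0.695) in resting CD4 cells. Of 17 naive and quiescence factors, none was at least 2-fold higher and 2 were lower, Sox4 and Runx1, with a median ratio of 0.722. Of 23 genes of the CD3 complex and proximal TCR signalling, 2 were lower, a share near the 7.01% of all genes tested. Cd5, a brake on TCR signals whose level follows the strength of self-recognition, was at 0.997 (0.802 to 1.22) in the members and 2.97 (2.59 to 3.40) in resting CD4 cells, and the costimulatory receptor Cd28 at 1.19 (0.980 to 1.44) and 3.25 (2.85 to 3.70). Igfbp4, which encodes a binding protein of insulin-like growth factors and marks naive T cells, was found in 96 members at 5.31 (4.85 to 5.81) and in resting CD4 cells at 10.5 (9.78 to 11.3).

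Of 24 interferon-response genes, 6 were at least 2-fold lower, against 7.01% of all genes tested, and none higher, against 2.63%, with a median ratio of 0.682 beside 0.874 over all genes tested. Ifi27l2a was at 2.30 (2.00 to 2.63) in the members and 5.87 (5.33 to 6.46) in resting CD4 cells, Ly6a at 0.657 (0.501 to 0.846) and 3.67 (3.24 to 4.14), and the other 4 were Isg15, Ifit1, Isg20 and Slfn5. The counts of the lists that follow stand against the same 2 shares. None of 17 MHC class I presentation genes passed 2-fold in either direction. Of 14 survival and GIMAP genes, 1 was lower, and of 12 immediate early genes Fos and Jun were lower, with 7 and 14 UMIs in the members. Of 17 cytokine receptors, Il2rb of the rule was higher and Il10ra lower. Of 6 tested effector and memory factors, Runx3 and Hopx were higher and Maf lower, and of 6 tested effector and cytolytic genes Nkg7, Ctsw and Ccl5 were higher, the last through 1 cell described further on, without which the count is 2. Among 14 memory-associated genes 5 were lower, S100a6, Anxa2, Ly6a, Ly6c1 and Itgb1, and 1 higher, Il2rb. Of 4 tested inhibitory receptors Btla and Cd200 were lower, and of 6 late thymic and recent thymic emigrant genes Ccr9 and Itgae were higher and Sox4 and Cd1d1 lower. Klrd1 was the 1 tested NK receptor. The RNA quality list had none of 5 genes past 2-fold, with a median ratio of 0.624. In the members, 1.66% of the UMIs were mitochondrial and 0.743% were Malat1, against 1.67% and 1.28% in resting CD4 cells.

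The Ly6c2 Il2rb CD8 cells differ from the members by the last limit alone, so that this comparison asks what else changes across it. Of 8744 genes, 220 (2.52%) were at least 2-fold higher in the members and 374 (4.28%) at least 2-fold lower, with a median ratio of 1.03. The ratio's interval lay above 1 for 163 of the 220 and below 1 for 232 of the 374. Of 16 naive and quiescence factors, 1 was at least 2-fold higher, Id3, with 26 UMIs in the members, and the median ratio was 1.21. Il7r was at 9.56 (8.94 to 10.2) and 9.28 (8.89 to 9.69), intervals that overlap. Ccr7 was at 7.94 (7.37 to 8.54) and 6.06 (5.74 to 6.39), within 2-fold with separate intervals, but among cells of 4000 to 8000 UMIs at 6.80 (6.05 to 7.61) and 7.34 (6.54 to 8.22), where the order turned and the intervals overlapped. Igfbp4 was at 5.31 (4.85 to 5.81) and 2.47 (2.27 to 2.69), a ratio of 2.15 (1.90 to 2.43).

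The genes with the 7 highest ratios were neutrophil and monocyte genes of 1 member, described further on. Among those found in many members, Ccr9 and Itgae stood out, the 2 that were higher of 20 homing and adhesion genes and of 5 late thymic and recent thymic emigrant genes. Ccr9 (chromosome 9, 123767211 to 123783457, GRCm38.p6), which encodes the receptor for the thymic and small-intestinal chemokine CCL25, was found in 49 members and 18 of 242 Ly6c2 Il2rb CD8 cells. Its pooled level was 0.997 (0.802 to 1.22) against 0.125 (0.0830 to 0.180), a ratio of 7.98 (5.18 to 12.7). The thinned share was 17.99% in the members, 3.75% in Ly6c2 Il2rb CD8 and 2.21% in resting CD4 cells, and no B-like cell held a UMI. St8sia1, which makes the ganglioside GD3, was at 1.20 (0.990 to 1.45) and 0.392 (0.315 to 0.484), and Slc6a19, a transporter of neutral amino acids, at 0.789 (0.617 to 0.993) and 0.312 (0.243 to 0.394). Ifngr2, the second chain of the interferon gamma receptor, was found in 40 members, with a ratio of 3.80 (2.37 to 6.18). The gene 1700062C10Rik was found in 18 members and 8 Ly6c2 Il2rb CD8 cells, while the 17 UMIs of BC035044 came from 1 member. Of 14 CD8 and CD4 lineage genes, Izumo1r, Itgae and Ccr9 were higher and Gata3 lower. None of 23 CD3 and TCR signalling genes, 17 MHC class I presentation genes and 5 RNA quality genes passed 2-fold, and of 24 interferon-response genes Ifit3 and Isg15 were lower.

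Among cells of 4000 to 8000 UMIs, a range chosen after the depth gap was seen, 76 members and 67 Ly6c2 Il2rb CD8 cells remained, with medians of 5593 and 6335 UMIs. There Ccr9 was at 1.10 (0.816 to 1.46) and 0.193 (0.0832 to 0.380), and Itgae at 1.13 (0.836 to 1.48) and 0.530 (0.332 to 0.802). Igfbp4 was at 4.37 (3.78 to 5.03) and 3.01 (2.51 to 3.59). Dapl1 was at 2.63 (2.18 to 3.16) and 3.47 (2.92 to 4.08), intervals that overlap. Of all 5356 genes compared in that range, 146 were at least 2-fold higher in the members and 218 at least 2-fold lower. Beside these, the list counts in that range were 9 lower of 15 memory-associated genes, 3 of 7 effector and memory factors, 1 of 6 effector and cytolytic genes, 2 of 3 NK receptors and none of 3 inhibitory receptors. There none of 15 naive and quiescence factors was higher, in place of 1, and of 20 interferon-response genes 2 were higher and 1 lower, in place of none and 2. Of 17 homing genes 2 were higher and 3 lower, and of 13 lineage genes 2 were higher and none lower.

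**Figure D3:**
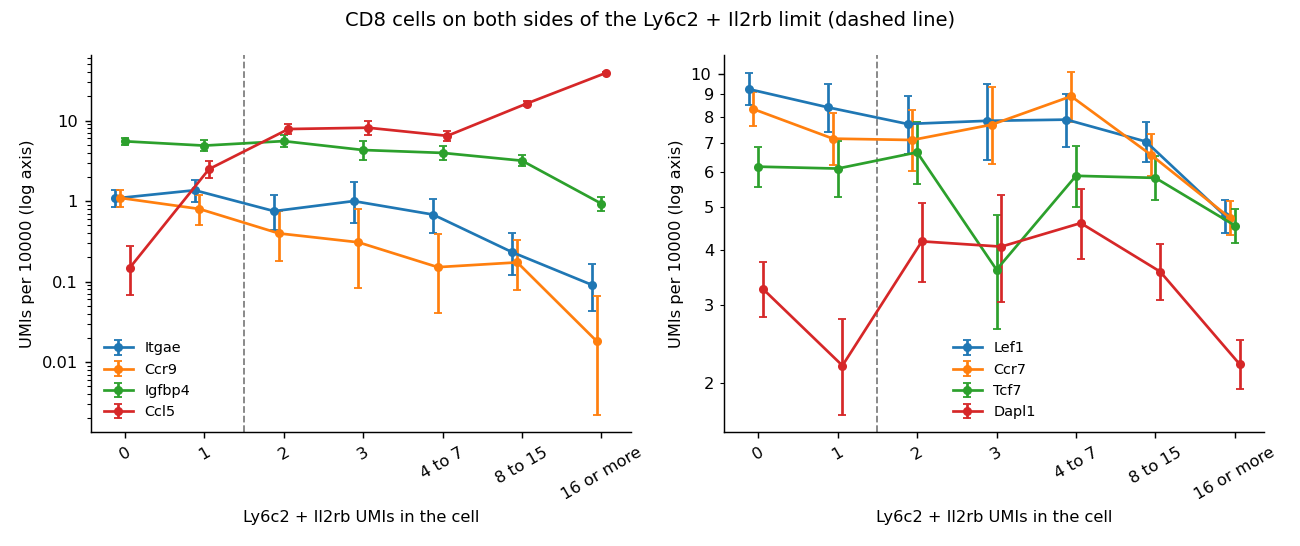
Pooled levels (y axis, UMIs per 10000, log axis) of 8 genes in CD8 cells without Cd4, granzyme or Cx3cr1 UMIs, by the number of Ly6c2 and Il2rb UMIs in the cell (x axis); cells left of the dashed line are members, bars are exact 95% Poisson intervals. From 0 UMIs to 16 or more, Itgae went from 1.08 to 0.0909, Ccr7 from 8.33 to 4.73 and Ccl5 from 0.147 to 39.2.

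The levels were also taken by the number of UMIs that the limit counts. From cells with 0 to cells with 1, 2, 3, 4 to 7, 8 to 15 and 16 or more UMIs of Ly6c2 and Il2rb there were 101, 45, 30, 17, 36, 58 and 101 cells, with median depths from 5841 to 10764 UMIs. Ccr9 was at 1.09 (0.848 to 1.39) in cells with 0, 0.797 (0.511 to 1.19) in those with 1 and 0.397 (0.181 to 0.753) in those with 2, the first outside the limit. Itgae was at 1.08 (0.834 to 1.37), 1.36 (0.978 to 1.85) and 0.749 (0.436 to 1.20), and Igfbp4 at 5.52 (4.95 to 6.14), 4.88 (4.13 to 5.74) and 5.55 (4.62 to 6.61). For these 3 genes the intervals of the cells just inside and just outside the limit overlapped. Dapl1 was at 3.27 (2.83 to 3.75) in cells with 0, 2.19 (1.70 to 2.79) in those with 1, 4.19 (3.39 to 5.12) in those with 2 and 2.21 (1.94 to 2.51) in those with 16 or more. Itgb1 was at 0.294 (0.174 to 0.465), 0.299 (0.137 to 0.568) and 1.76 (1.26 to 2.40) in the first 3 classes, and at 0.384 (0.125 to 0.897) in cells with 3 and 0.566 (0.317 to 0.934) in cells with 4 to 7, which overlap the members. For these 2 genes the classes on either side of the limit did not overlap, but the levels had no single direction over the classes. Ccl5 and S100a6 were also apart at the limit. Ccl5 was at 2.49 (1.96 to 3.12) in cells with 1, where 69 of its 75 UMIs came from 1 member. It was at 7.84 (6.73 to 9.08) in cells with 2, where 4 of 30 cells held all 178 UMIs. In cells with 16 or more it was at 39.2 (38.0 to 40.4). S100a6 was at 0.731 (0.458 to 1.11) in cells with 1, 2.16 (1.60 to 2.85) in those with 2 and 0.717 (0.432 to 1.12) in those with 4 to 7. Its 22 UMIs in cells with 1 came from 2 cells, 18 of them from the same member as Ccl5. The 49 in cells with 2 came from 3 cells. For Ccl5 and S100a6 the gap at the limit thus rests on few cells. In cells with 16 or more UMIs, Igfbp4 was at 0.927 (0.756 to 1.13) and Lef1 at 4.77 (4.37 to 5.199), against 9.25 (8.50 to 10.0) in cells with 0. Since both the classes and these levels come from the same UMIs and deeper cells fall in the later classes, this is a description.

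Genes lower in the members included memory-associated ones. Of 16 memory-associated genes, 10 were at least 2-fold lower, against 4.28% of all genes tested, and none higher, with a median ratio of 0.310, and Ly6c2 and Il2rb of the rule were 2 of the 10. A gene low in the members entered this comparison mostly through its UMIs in the other group, so that for this list and those of factors, NK receptors and effector genes the counts describe the genes that passed and are no support for a direction. S100a6, a calcium-binding protein, was at 0.460 (0.332 to 0.622) in the members and 2.73 (2.52 to 2.96) in Ly6c2 Il2rb CD8 cells, and Itgb1, the integrin beta 1 chain, at 0.296 (0.195 to 0.430) and 1.26 (1.12 to 1.42). Of 8 tested effector and memory factors, 4 were lower. Tbx21, which encodes T-bet, had no UMI in the members and 88 in Ly6c2 Il2rb CD8 cells, a level at least 11.9 times lower with 3 UMIs set for the members and at least 9.51 times by the exact interval, and its relative Eomes had 6 and 138 UMIs, a ratio of 0.107 (0.0385 to 0.238). Hopx was at 0.339 (0.231 to 0.482) and 1.49 (1.34 to 1.66). Of 13 NK receptors, 6 had too few UMIs to be compared, 6 of the other 7 were lower, and Klrd1 was at 2.91 (2.57 to 3.29) and 2.80 (2.59 to 3.03). Of the homing genes 5 were lower, among them S1pr5, Ccr2, Cxcr3 and Itgb1. Cxcr3, the receptor for interferon-induced chemokines, had 5 UMIs in 3 members, against 182 in 96 Ly6c2 Il2rb CD8 cells.

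Ccl5, the chemokine RANTES stored by memory CD8 cells, had 84 UMIs in 13 members, and 69 of them came from 1 cell of 3620 UMIs. Without that cell the members' level was 0.165 per 10000 in place of 0.920, against 25.02 (24.4 to 25.7) in Ly6c2 Il2rb CD8 cells. In thinned cells, 5.04% of the members and 7.84% of the B-like cells held a Ccl5 UMI, so that the share in the members is at the level of background. Samd3 had no UMI in the members and 177 in the Ly6c2 Il2rb CD8 cells, a level at least 24.0 times lower with 3 UMIs set for the members and at least 19.3 times by the exact interval. Chst11, a sulfotransferase, and Ifngas1, a non-coding RNA beside Ifng, had 1 UMI each in the members and 95 each in Ly6c2 Il2rb CD8 cells, with ratios of 0.0258 (0.000648 to 0.148). Rasgef1b, Gpr15, Xcl1 and Klrk1 each had 1 or 2 UMIs in the members. Of 10 tested effector and cytolytic genes, 5 were lower, Gzmm, Fasl, Ccl5, Xcl1 and Serpinb9, and of 19 cytokine receptors 4, Il2rb of the rule, Il10ra, Il12rb1 and Il18r1. Of 5 inhibitory receptors, Ctla4 was higher, with 35 UMIs in 21 members, and Tigit and Cd160 lower. The 1 immediate early gene of 11 that was higher, Dusp1, had 7 of its 22 UMIs in the same single member as Ccl5 and did not pass 2-fold without it. Of 15 survival and GIMAP genes 2 were lower, Bcl2l1 and Bbc3. The survival factor Bcl2 was at 4.44 (4.01 to 4.89) and 6.09 (5.77 to 6.42), within 2-fold with separate intervals.

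Gzmk or Cx3cr1 CD8 cells are the effector end of the CD8 cells, and the absence of their 4 defining genes was part of the members' choice, so that the values are a description of how far the 2 ends lie apart. Of 7404 genes, 360 (4.86%) were at least 2-fold higher in the members and 778 (10.5%) at least 2-fold lower, with a median ratio of 0.873. The interval of the ratio excluded 1 for 270 and 708 of them. Where 20% of UMIs on ribosomal protein genes was asked of every cell, 378 genes were higher and 468 lower, so that 44.7% of those past 2-fold were higher in place of 31.6%. Of 15 naive and quiescence factors, 5 were higher and none lower, namely Lef1, Tcf7, Satb1, Bach2 and Id3. Ccr7 differed by 5.29 (4.28 to 6.60) and Igfbp4 by 16.7 (10.8 to 27.2), being found in 7 of 105 Gzmk or Cx3cr1 CD8 cells. Slc6a19 was higher by 26.0 (6.94 to 219), Plekho1 by 18.8 (4.95 to 159), St8sia1 by 15.9 (6.61 to 49.9), Ntrk3 by 19.5 (3.22 to 799) and Ctsl by 16.6 (2.70 to 685). For the IL-6 receptor, both chains were higher, Il6st by 15.5 (5.85 to 58.3) and Il6ra by 3.16 (2.06 to 4.99). Gm30948, a predicted gene, was found in 38 members and 2 Gzmk or Cx3cr1 CD8 cells. The 10 highest ratios also held S100a8 and S100a9, through the 1 member described further on.

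The same limit on what was compared holds for the lists on the other side. There, where 10.5% of all genes tested were at least 2-fold lower in the members, all 16 tested memory-associated genes were, 2 of them genes of the rule, as were 10 of 12 effector and memory factors and 11 of 14 effector and cytolytic genes, 3 of them genes of the rule. Ccl5 was at 215 (211 to 218) per 10000 in Gzmk or Cx3cr1 CD8 cells, Nkg7 at 28.7 (27.4 to 29.9997) and S100a6 at 17.99 (16.98 to 19.05). Of 8 inhibitory receptors, 5 were lower, among them Pdcd1, which encodes PD-1. Pdcd1 had no UMI in the 146 members, which allows a level of up to 0.0329 per 10000 by the limit of 3 UMIs and 0.0404 by the exact interval, and 53 UMIs in 23 of 105 Gzmk or Cx3cr1 CD8 cells. Btla was higher, with 35 UMIs against 7, a ratio of 3.61 (1.58 to 9.64). Lgals3, Klrk1, Rasgef1b, Gm15987, Ccl4 and Tigit had 1 or 2 UMIs in the members, Klrc1 had none and the 5 UMIs of S100a4 came from 1 member. Of 24 interferon-response genes, 7 were lower and 1 was higher. None of 17 MHC class I presentation genes passed 2-fold, with H2-K1 at 28.5 (27.4 to 29.6) in the members and 39.05 (37.6 to 40.6) in Gzmk or Cx3cr1 CD8 cells. No immediate early gene of 10 and no RNA quality gene of 5 passed it. Of 20 homing genes, 4 were higher, among them Ccr7, Ccr9 and Itgae, and 9 lower, among them Cd44, Itgal, Itgb2 and Itga4. Of 14 lineage genes 4 were higher and 4 lower, of 23 CD3 and TCR signalling genes Fyn, Cd5 and Cd28 were lower, and of 18 cytokine receptors Ifngr2 was the third that was higher, while 4 were lower. Of the 7 NK receptors of 13 with enough UMIs 6 were lower, of 5 late thymic genes Ccr9 and Itgae were higher and Tox lower, and of 14 survival and GIMAP genes Gimap4 and Gimap7 were lower.

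**Figure D4:**
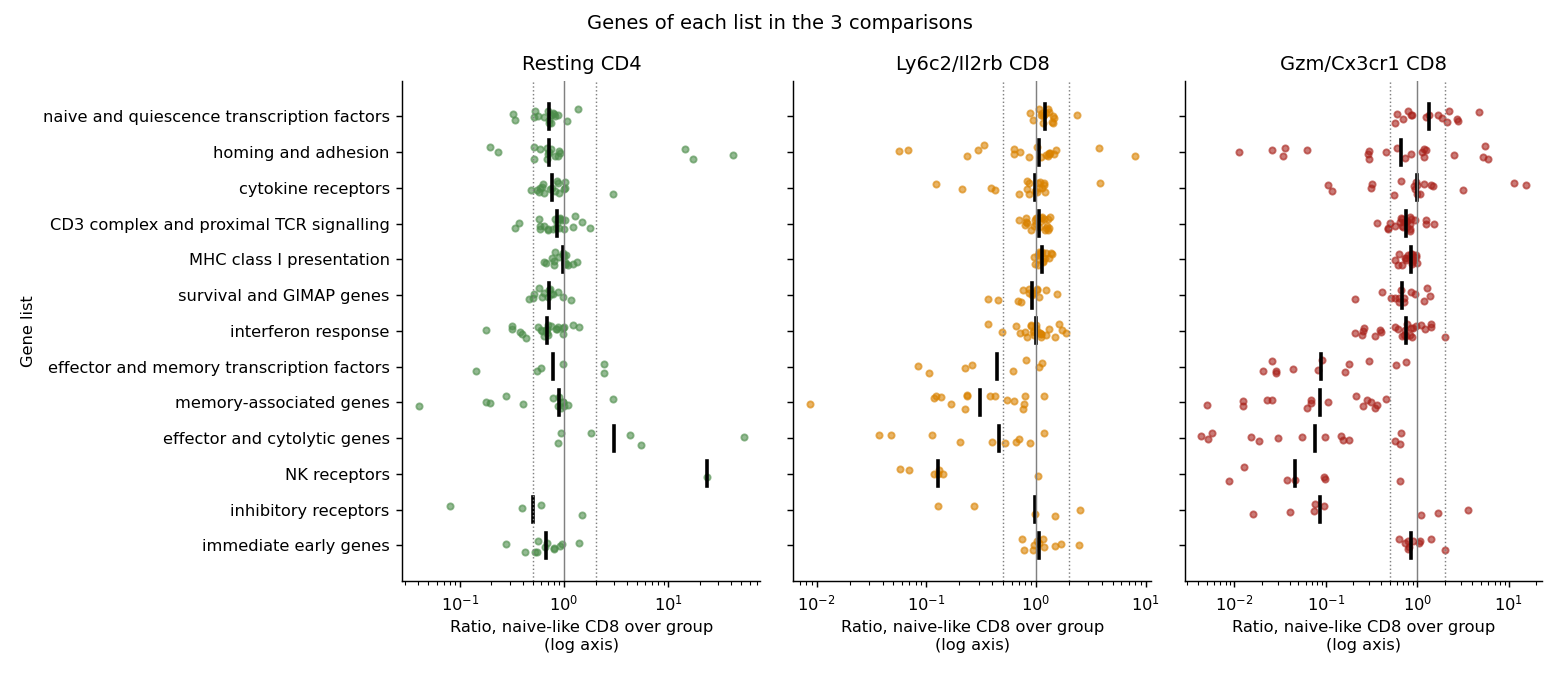
Ratio of pooled levels of the naive-like CD8 cells to each of 3 groups (x axis, log axis), 1 point for each tested gene of 13 lists (y axis) and a black bar at the list's median; the dotted lines mark 2-fold, and a group at 0 was set to 3 UMIs. The panels differ in span. All 16 memory-associated genes were at least 2-fold lower against Gzmk or Cx3cr1 CD8 cells, 10 of 16 against Ly6c2 Il2rb CD8 cells and 5 of 14 against resting CD4 cells.

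The members differed among themselves in these genes. Of the 64 members with an Itgae UMI, 26 also held Ccr9, while 23 of the 82 others did. The pooled Ccr9 level was 1.43 (1.09 to 1.85) in the former and 0.638 (0.437 to 0.901) in the latter, with median depths of 6804.5 and 5645.5 UMIs. Of the 66 members with a Dapl1 UMI, 22 held Itgae, and of the other 80, 42 did. The Ccr9 level was 0.619 (0.412 to 0.895) where Dapl1 was found and 1.37 (1.05 to 1.75) where it was not, although the cells with Dapl1 were deeper, with a median of 7399 against 5317.5 UMIs. Lef1 was alike on both sides of Dapl1, at 8.94 (8.09 to 9.85) and 9.001 (8.16 to 9.91). Igfbp4 had 485 UMIs in the members, up to 51 of them in 1 cell, and its levels by depth were not taken without that cell. Igfbp4 was at 4.17 (3.26 to 5.25) in the 49 shallowest members and 6.49 (5.76 to 7.28) in the 49 deepest, intervals that do not overlap. Itgae was at 1.85 (1.27 to 2.61) and 1.12 (0.833 to 1.48), which overlap. In the 48 members of middle depth Itgae was at 0.847 (0.548 to 1.25), apart from the shallowest. Ccr7 and Il7r ran opposite to Igfbp4, with separate intervals. From the shallowest to the deepest members, Ccr7 went from 12.3 (10.7 to 14.0) to 7.39 (6.61 to 8.23) and Il7r from 14.4 (12.7 to 16.3) to 8.29 (7.46 to 9.18).

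Markers of other cell types were looked for in the members. One member of 3620 UMIs held 115 of the 116 S100a8 UMIs, all 103 S100a9, 31 Il1b, 24 Wfdc17 and 21 Ifitm1 UMIs, 32 of 33 Ccl6 and 27 of 29 Tyrobp UMIs of all members. The same cell held 69 of the 84 Ccl5 and 18 of the 42 S100a6 UMIs, 3 CD8 UMIs and no Lef1 UMI, so that it meets the rule with RNA of more than 1 cell type. Without it, 718, 597 and 1137 genes in place of 723, 594 and 1138 passed 2-fold against resting CD4, Ly6c2 Il2rb CD8 and Gzmk or Cx3cr1 CD8 cells. A second member, of 5293 UMIs, held 6 of 7 Trdc UMIs and all 17 of BC035044, and a further one, of 4754 UMIs, the other Trdc UMI, all 5 S100a4 UMIs and 14 of the S100a6 UMIs. Both of these had no clonotype. Of 7 B cell genes, Cd79a and Ms4a1 had no UMI, while Ighm was found in 86 members at 1.57 (1.32 to 1.84), against 10.9 (9.70 to 12.2) in B-like and 0.455 (0.307 to 0.649) in Gzmk or Cx3cr1 CD8 cells. Against Ly6c2 Il2rb CD8 and resting CD4 cells Ighm did not pass 2-fold in either direction. In barcodes of 10 to 50 UMIs, taken as the profile of free RNA, Ighm was at 1.26 per 10000. The part of free RNA in the members' Ighm level was not tested. The gamma delta T cell list summed to 8 UMIs in 2 members and the innate-like T cell list to 5 UMIs in 1 member, with Klrb1c at 0. The regulatory T cell list summed to 107 UMIs, of which Tnfrsf18 had 49 and Foxp3 3. Of the CD4 T cell list, Izumo1r had 19 UMIs and the other 4 genes none, and of the NK list Tyrobp had 29 of 37 UMIs, with Ncr1, Klrb1c, Klra8 and Klre1 at 0. Of 9 proliferation genes, Mki67, Birc5, Cdk1, Rrm2 and Pclaf had no UMI, and Stmn1 had 13. Platelet genes summed to 0.274, monocyte genes to 1.03, of which Cst3 had 77 of 94 UMIs, erythroid genes to 0.0219 and SCLC tumour genes to 0.0657 per 10000, with Epcam at 0.

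The TCR contigs were not used to choose the members. A clonotype was given to 133 of 146 members, 91.1% (85.3% to 95.2%), against 95.9% (92.5% to 98.0%) of Ly6c2 Il2rb CD8, 94.3% (88.0% to 97.9%) of Gzmk or Cx3cr1 CD8 and 93.98% (89.2% to 97.1%) of resting CD4 cells, and to none of the 61 B-like cells. A productive alpha and beta chain were found in 102 of the 133, the beta chain alone in 29 and the alpha chain alone in 2. The median was 8 UMIs for a beta and 3 for an alpha chain. The 13 members without a clonotype had a median of 4325 UMIs, against 6272 in the others. Of the 104 members with an alpha chain, 8 had a second productive one, 7.69% (3.38% to 14.6%), and 4 of 131 with a beta chain had a second productive one.

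Hardly any receptor was repeated. The 133 clonotyped members carried 132 clonotypes, and 5 of them, 3.76% (1.23% to 8.56%), belonged to a clonotype of 2 or more cells. The share was 3.45% (1.5003% to 6.68%) in Ly6c2 Il2rb CD8 and 2.56% (0.703% to 6.43%) in resting CD4 cells, intervals that overlap that of the members. In Gzmk or Cx3cr1 CD8 cells it was 42.4% (32.5% to 52.8%), which does not overlap. Of the 4 repeated clonotypes, 1 lay within the members, with both of its cells, and 2 joined 1 member with 1 Ly6c2 Il2rb CD8 cell. The fourth joined 1 member with 4 Gzmk or Cx3cr1 CD8 cells, and this member was the cell of 3620 UMIs with neutrophil genes and Ccl5. Without it, 4 of 132 clonotyped members, 3.03% (0.832% to 7.58%), were in a repeated clonotype.

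The CDR3, the loop that touches the antigen, is printed here as DNA for the repeated receptors, since cells were put in 1 clonotype by the identity of these bases. Capitals mark bases that match neither the end of the V segment nor the start of the J segment in GENCODE vM39, which come from the D segment or were added at the joint. The first 2 chains are the beta and alpha chain of the clonotype within the members, and the next is the beta chain that the member with neutrophil genes and Ccl5 shares with Gzmk or Cx3cr1 CD8 cells. The fourth is the alpha chain of a clonotype of 1 member and 1 Ly6c2 Il2rb CD8 cell, read with 1 UMI in the member. The beta chains of the last 2 clonotypes were labelled TRBV10, whose reference sequence did not match the contigs, and are not shown.
TRBV5 with TRBJ2-3, 2 members: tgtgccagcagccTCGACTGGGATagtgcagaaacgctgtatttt
TRAV7-5 with TRAJ24, the same 2 members: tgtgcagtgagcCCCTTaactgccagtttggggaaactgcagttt
TRBV15 with TRBJ2-5, 1 member and 4 Gzmk or Cx3cr1 CD8 cells: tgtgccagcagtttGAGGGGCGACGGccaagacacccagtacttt
TRAV12D-3 with TRAJ32, 1 member and 1 Ly6c2 Il2rb CD8 cell: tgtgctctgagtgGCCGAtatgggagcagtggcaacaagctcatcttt

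These junctions hold 11, 5, 12 and 5 bases outside the V and J segments. The member of the third chain had it with 2 UMIs and no alpha chain, so that its tie to the larger clonotype rests on 1 chain. In contrast, 2 CDR3s of members were also found under other clonotypes. An alpha CDR3 that can be read from TRAV14 family and TRAJ22 segments with no base outside V and J was found in 5 cells of 5 clonotypes, 1 of them a member. A beta CDR3 with 6 bases outside V and J was shared by 1 member and 1 Ly6c2 Il2rb CD8 cell of another clonotype.
TRAV14 family with TRAJ22, 5 cells: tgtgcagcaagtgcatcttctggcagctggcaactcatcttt
TRBV1 with TRBJ1-3, 2 cells: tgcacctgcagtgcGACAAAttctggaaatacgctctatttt

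Over all members, 128 of 135 beta and 110 of 112 alpha chains could be set against their segments. The beta junction held 10.02 ± 3.92 bases outside V and J (SD over chains), from 2 to 21 with a median of 10, against 9.14 ± 3.69 in resting CD4 cells, and no member had a beta chain without such bases. The alpha junction held a median of 3, and 14 alpha chains (12.7%, 7.14% to 20.4%) had none. The beta CDR3 was 30 to 54 bases long, 41.6 ± 4.95 on average, against 41.6 ± 4.38 in resting CD4 cells. It was 39 bases or shorter in 37.0% of the member chains. The beta chains with the fewest and the most such bases show the range.
TRBV26 with TRBJ1-1, 2 bases: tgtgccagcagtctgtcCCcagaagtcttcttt
TRBV2 with TRBJ2-1, 21 bases: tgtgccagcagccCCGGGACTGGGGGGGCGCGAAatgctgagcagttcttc

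**Figure D5:**
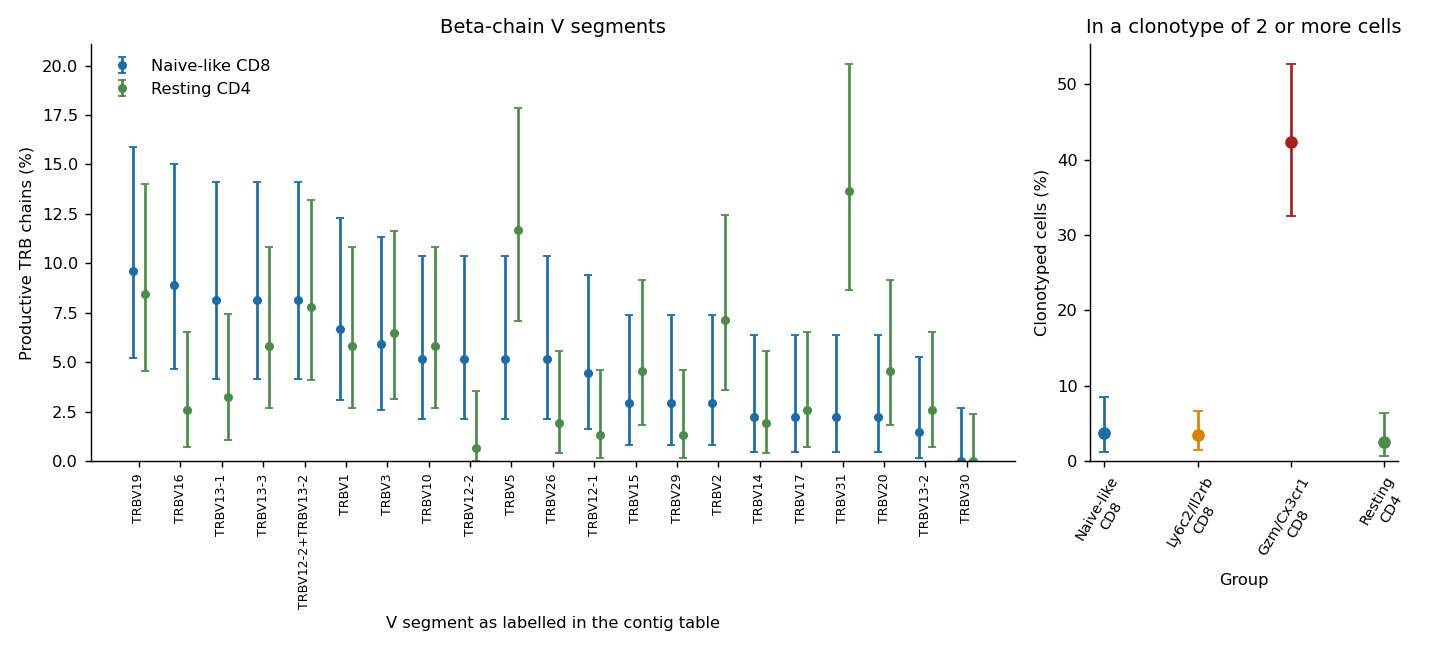
Left, share of productive beta chains (y axis, %) by V segment (x axis) in naive-like CD8 and resting CD4 cells; right, share of clonotyped cells in a clonotype of 2 or more cells (y axis, %) in 4 groups. Bars are exact 95% binomial intervals; TRBV31 was at 2.22% in the members and 13.6% in resting CD4 cells, and 42.4% of Gzmk or Cx3cr1 CD8 cells were in a repeated clonotype.

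No beta V segment was used by more than 13 of the 135 member chains. TRBV19 was the most frequent, at 9.63% (5.23% to 15.9%), followed by TRBV16 at 8.89% (4.68% to 15.01%) and TRBV13-1, TRBV13-3 and the joint label of TRBV12-2 and TRBV13-2 at 8.15% (4.14% to 14.1%) each. Neighbours in this order did not differ beyond counting error. Of 21 labels set beside resting CD4 cells, TRBV31 had intervals that did not overlap, at 2.22% (0.461% to 6.36%) in the members and 13.6% (8.64% to 20.1%) in resting CD4 cells. TRBV12-2 was at 5.19% (2.11% to 10.4%) and 0.649% (0.0164% to 3.56%), and TRBV16 at 8.89% and 2.60% (0.712% to 6.52%), with intervals that overlap. In Ly6c2 Il2rb and Gzmk or Cx3cr1 CD8 cells TRBV31 was at 1.70% and 0.962%. TRBJ2-7 was the most frequent J segment, at 19.3% (12.98% to 26.9%) of member chains and 13.6% of resting CD4 chains. No alpha chain of the members joined TRAV11 with TRAJ18 or TRAV1 with TRAJ33, the pairs of the invariant receptors of NKT and MAIT cells, among 112 chains.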

How the data were processed

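Raw counts of UMIs per gene and barcode were deposited by the authors without a cell filter or normalization, with a contig table holding read and UMI counts, segments, CDR3 and clonotype of each contig. The authors used Cell Ranger, version 4 per the file header, and the submitters' processing notes name GRCm38. The matrix holds 12855001 UMIs over 32285 genes and 300213 barcodes. Loupe annotations and the other mice were not analysed here.

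Cells were called at the 99th percentile of the 3000 deepest barcodes divided by 10, which gave 1331 UMIs. Members were found by their rule, and the members and all gene lists were chosen with earlier results of these data known. UMIs were pooled per group. Genes with at least 20 UMIs in both groups together were compared, a difference of 2-fold was the size named, and a group at 0 was set to 3 UMIs over the group. With 1 library no test was run. Intervals are exact at 95%. Named genes were the 5 given markers, list members, and the 10 highest and 10 lowest ratios of each comparison without TCR, immunoglobulin, mitochondrial, ribosomal protein and rule genes. Productive, high-confidence contigs of barcodes called cells were used. CDR3s were split where at least 5 bases matched the V segment. Doublets were kept in the values given. Scrublet in scanpy 1.11.5 marked 14 of 1600 cells, 2 of them members, and 4 members had 2 productive TRB chains. Gene positions are RefSeq's on GRCm38.p6. Python 3.11.15, numpy 2.4.6, pandas 2.3.3 and scipy 1.17.1 were used, and the ratio, interval and germline steps were tested on simulated data. Alternatives changed the limits of the rule, doublets, clonotyped cells, the UMI filter, pooling, free RNA at an assumed 5% from barcodes of 10 to 50 UMIs, and the definition of a clonotype. Restricting the cells to 4000 to 8000 UMIs and leaving out 1 member with neutrophil genes were added after seeing the data. Some genes of the lists are not reported here by name.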

Additional observations from a re-analysis of the deposited data

Results flagged for a closer look

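Non-productive contigs entered no comparison above and are given for that reason, since any share above the limit for a count of 0 is listed. A high-confidence TRA or TRB contig that is not productive was found in 41 of 146 naive-like CD8 cells, 28.1% (20.97% to 36.1%), TRA in 30 and TRB in 15. The share was 25.6% (20.2% to 31.6%) in Ly6c2 Il2rb CD8, 36.2% (27.0% to 46.1%) in Gzmk or Cx3cr1 CD8 and 31.3% (24.4% to 38.97%) in resting CD4 cells, intervals that overlap that of the members. None of 61 B-like cells had one, which allows a share of up to 4.92% by the limit of 3 cells and 5.87% by the exact interval.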

How the results depend on the processing

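Of 185 values recomputed under alternatives, 177 stayed within 1.5 times (counts) or within the counting interval (levels and shares). Several alternatives kept nearly the same cells, such as a CD8 limit of 1 UMI, which added 9, or leaving out 1 member. The count of 177 is therefore no measure of independent agreement. The number of genes past 2-fold fell from 723 to 86 against resting CD4, from 594 to 76 against Ly6c2 Il2rb CD8 and from 1138 to 230 against Gzmk or Cx3cr1 CD8 cells when 100 UMIs were asked for, with 2340, 4071 and 2269 genes compared in place of 7504, 8744 and 7404. In cells of 4000 to 8000 UMIs it was 478 and 364 against the first 2, with 5299 and 5356 genes compared. Of the 478, 38.5% were higher in the members in place of 27.2%. In that band the Cd8a level was 6.19 in place of 5.40 and Igfbp4 4.37 in place of 5.31 per 10000, and as a mean over cells Igfbp4 was 4.72. The cause of the changes in that share and in these levels was not tested. Asking 20% of UMIs on ribosomal protein genes moved the share higher in the members from 27.2% to 37.5% against resting CD4 and from 31.6% to 44.7% against Gzmk or Cx3cr1 CD8 cells. No paired analysis was possible because there is 1 sample. Leaving out a replicate was not possible for the same reason. Genes with fewer than 20 UMIs were not compared, and a count of 0 in the members allows a level of up to 0.0329 per 10000 by the limit of 3 UMIs and 0.0404 by the exact interval.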
